A study of Homo sapiens with 13 samples.

Results

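Blood clots are built by the coagulation cascade and dissolved by plasmin, and both systems are run by small families of proteases, receptors and inhibitors that many tissue cells also make. The 9 genes described here are PLAU, PLAUR, PLAT, SERPINE2, SERPINB2, F3, THBD, TFPI and TFPI2. They were chosen by name for their roles in plasminogen activation and in the start and restraint of coagulation. The rule uses gene names and no measured value, but it was set with earlier results of these data known. All 9 were found, once each, among the 43836 genes of the count table, and all 9 passed the filter on low counts that left 17092 genes for testing. THBD passed it only through the libraries grown with serum.

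Messenger RNA was sequenced from hFOB 1.19, a single immortalized line of human fetal osteoblasts, the cells that lay down bone matrix. The 12 libraries fell into 5 groups. The 2 positive controls (PC) were grown with 10% fetal bovine serum and the 2 negative controls (NC) without it. Both kinds of control also held the vehicle DMSO, per the methods. The remaining cells were kept without serum and received 1 µg/mL of a plant compound, namely resveratrol (RES, a stilbene, 3 libraries), peonidin-3-glucoside (POG, an anthocyanin, 3 libraries) or the compound coded DEG (2 libraries). The labels do not spell out DEG. The 3 compounds named in the treatment label are delphinidin-3-glucoside, peonidin-3-glucoside and resveratrol. A further sample labelled DEG was not analysed here. Nothing in the labels says whether libraries of a group came from separate cultures, so p-values measure the spread between these libraries, which may be technical, and the results speak for 1 line.

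Plasminogen is a circulating precursor that tissue-type (PLAT) and urokinase-type (PLAU) plasminogen activators cut into plasmin. PLAUR holds urokinase at the cell surface, so that plasmin forms next to the matrix. In bone, plasminogen activators are known to be secreted by osteoblasts and to take part in matrix turnover, and the serpins SERPINE2 (protease nexin-1) and SERPINB2 inhibit them. On the coagulation side, F3 (tissue factor) starts the extrinsic pathway by binding factor VII. TFPI blocks the complex that results, TFPI2 is a related Kunitz-type inhibitor that acts on plasmin and other serine proteases in the matrix, and THBD (thrombomodulin) turns thrombin toward the activation of protein C.

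Library totals ran from 38464619 to 51416358 counted reads. Levels are given in CPM, read counts scaled to a common library size, with TMM factors that align the bulk of genes between libraries. The common biological coefficient of variation over the libraries was 3.2%, so differences of a few percent could pass the test for genes with many reads. Markers of the labelled cell type were present: COL1A1 lay between 2484 and 2865 CPM in the group means and RUNX2, the master regulator of the osteoblast lineage, at 47.1 CPM in NC. COL1A2 was at 1347 CPM and SPARC at 1046 CPM in NC. The other markers of the list were low in NC, with ALPL at 4.07, SPP1 at 2.16, BGLAP (osteocalcin) at 1.49 and the transcription factor SP7 at 0.0629 CPM, and IBSP had 0 reads there. Among cells known to make several of the 9 genes, liver markers summed to at most 0.331 CPM, platelet and megakaryocyte markers to at most 4.53 and blood and macrophage markers to at most 4.61 in any library. Epithelial markers summed to at most 4.89, adipocyte markers to at most 1.17 and chondrocyte markers to at most 6.54 CPM. The 7 endothelial markers summed to 73.1 to 78.7 CPM in PC, 50.7 to 53.5 in NC, 67.8 to 75.8 in RES, 46.5 to 49.6 in POG and 48.8 to 49.7 in DEG. Most of that sum was TEK (55.1 CPM in PC, 40.3 in NC, 53.4 in RES), while CDH5, the defining junction protein of endothelium, had 0 reads in NC and a mean of 0.0746 CPM in RES. Single markers did not all follow the sum: with serum VWF went from 2.53 to 0.299 CPM and PECAM1 from 2.29 to 1.57, and TIE1 was at 8.34 CPM in POG and 7.91 in DEG against 5.60 in NC. The sum moved in the same direction as PLAU and PLAT in all 4 comparisons with NC. So did TEK, its main part, at 34.6 CPM in POG and 36.1 in DEG, while TIE1 was higher than NC in both. The part of these markers in the changes of PLAU and PLAT was not tested. In bulk RNA, fewer cells of a type and less RNA per cell cannot be told apart.

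Promoters are shown for 4 of the genes. PLAU and TFPI2 shared the order of their 5 group means, which PLAT also had. SERPINE2 and SERPINB2 had orders that differed from it and from each other. The set of RefSeq promoters used here (GRCh38.p14) held 9 start sites for 7 of the 9 genes. THBD and PLAT had no entry in that set and are named only. Each sequence is the run of 250 bases before a start site, 5′ to 3′ on the strand of the gene. Capitals mark exact matches to the letters searched on both strands: the AP-1 element TGANTCA, the cyclic AMP response element TGACGTCA, the TATA box TATAAA and the GC box GGGCGG. A match on the other strand appears as its reverse complement. PLAU and SERPINE2 have 2 start sites each in that set and 1 is shown for each. The window of PLAU (urokinase) is at chr10:73910882-73911131 on the plus strand, that of SERPINE2 at chr2:224038641-224038890 on the minus strand, that of SERPINB2 at chr18:63887455-63887704 on the plus strand and that of TFPI2 at chr7:93890754-93891003 on the minus strand.
PLAU: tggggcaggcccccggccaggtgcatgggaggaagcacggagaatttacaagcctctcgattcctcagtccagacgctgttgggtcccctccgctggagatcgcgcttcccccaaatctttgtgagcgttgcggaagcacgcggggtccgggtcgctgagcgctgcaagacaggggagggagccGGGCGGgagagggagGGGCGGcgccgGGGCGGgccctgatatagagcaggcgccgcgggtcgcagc
SERPINE2: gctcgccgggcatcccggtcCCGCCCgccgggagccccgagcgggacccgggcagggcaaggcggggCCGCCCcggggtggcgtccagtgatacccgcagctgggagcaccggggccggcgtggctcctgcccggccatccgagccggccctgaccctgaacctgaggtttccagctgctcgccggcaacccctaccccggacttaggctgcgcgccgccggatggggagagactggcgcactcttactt
SERPINB2: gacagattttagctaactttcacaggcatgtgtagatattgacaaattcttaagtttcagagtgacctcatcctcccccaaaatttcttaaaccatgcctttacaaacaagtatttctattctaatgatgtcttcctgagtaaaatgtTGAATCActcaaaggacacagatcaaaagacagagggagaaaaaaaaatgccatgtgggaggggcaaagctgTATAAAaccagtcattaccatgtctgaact
TFPI2: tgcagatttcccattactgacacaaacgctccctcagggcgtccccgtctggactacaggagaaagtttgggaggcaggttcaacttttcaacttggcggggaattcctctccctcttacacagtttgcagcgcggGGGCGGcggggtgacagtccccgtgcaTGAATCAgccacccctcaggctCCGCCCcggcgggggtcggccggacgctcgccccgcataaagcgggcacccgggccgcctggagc

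The printed PLAU window held 3 GC boxes, the nearest 40 to 35 bases before the start. SERPINB2 held an AP-1 match 102 to 96 bases and a TATA box 30 to 25 bases before its start. TFPI2 held an AP-1 match 87 to 81 bases before its start and 2 GC boxes, and SERPINE2 held 2 GC boxes. Of the 35116 RefSeq promoter windows of the same length, 6.57% held the AP-1 letters, 1.65% the cyclic AMP response element, 10.7% the TATA letters and 42.6% the GC box. A match describes these letters and is not a binding site by itself. The windows of F3 and PLAUR, which are not printed, held 2 and 1 AP-1 matches, and that of TFPI, also not printed, held none of the letters searched. Of the second start sites, that of PLAU had no match and that of SERPINE2 had a GC box 50 to 45 bases before it.

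Scaled by the length of the longest transcript, TFPI2 was by far the most abundant of the 9 mRNAs. Its level in NC was 968 ± 3.30 CPM per kb (SD, n = 2), followed by PLAUR at 180.3 ± 1.07, SERPINE2 at 97.6 ± 1.32 and PLAU at 89.6 ± 3.47 CPM per kb (SD, n = 2 each). TFPI at 34.7 ± 0.160 and PLAT at 33.2 ± 2.35 CPM per kb did not differ beyond their spread (SD, n = 2 each). F3 at 9.09 ± 0.0236, SERPINB2 at 2.48 ± 0.181 and THBD at 0.00622 ± 0.00880 CPM per kb came last (SD, n = 2 each). The inner ranks depended on the length used. Per kb of all exons joined, PLAUR moved from the second place to the fourth, at 65.1 CPM per kb, level with SERPINE2 at 65.2 and below PLAU at 80.8. TFPI2 alone took 0.279% of all reads in PC, 0.212% in NC and 0.182% in POG.

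**Figure D1:**
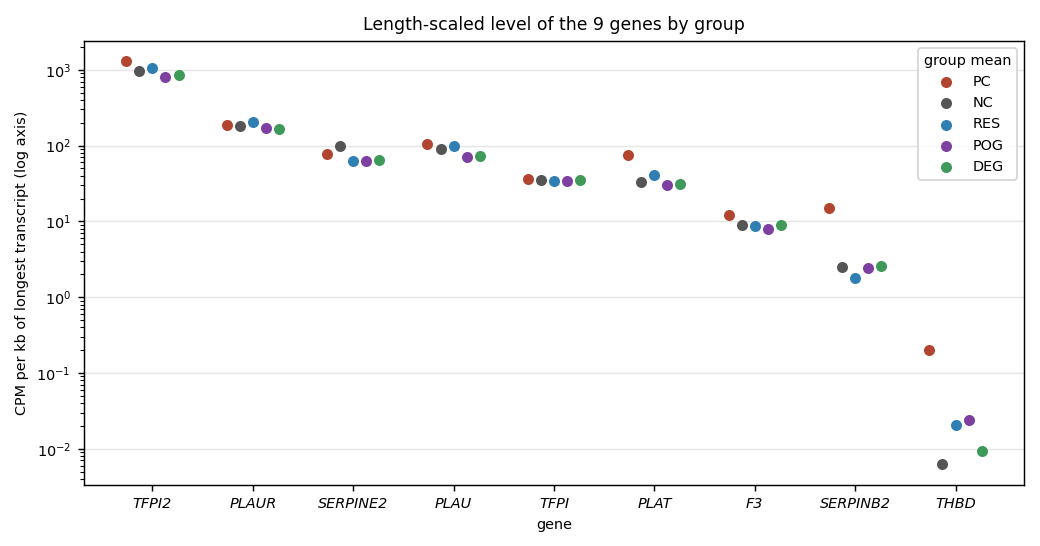
Mean level of each of the 9 genes in the 5 groups, in CPM per kb of the longest transcript on a log axis, with 1 point per group (PC, positive control; NC, negative control). TFPI2 lies highest in every group and THBD lowest. The groups of a gene lie close together except for PLAT, SERPINB2 and THBD, whose PC points stand above the rest.

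Serum raised most of the 9 genes. Against NC, 6 of the 9 genes were higher in PC (PLAT, PLAU, SERPINB2, F3, THBD and TFPI2) and SERPINE2 was lower, in a comparison that called 42.4% of all tested genes, 21.5% higher and 20.9% lower. The libraries of PC and NC did not overlap for any of the 9, as for 65.6% of all tested genes. A call is a false discovery rate (FDR) under 0.05 in edgeR's exact test over all tested genes. The median log2 change of the 9 genes was 0.43, against −0.01 over all tested genes. PLAUR and TFPI were not called. THBD is in these counts and in the median. It passed the filter on low counts only through PC, so it is not independent support for a rise.

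With the compounds fewer of the 9 genes were called than with serum. RES raised PLAU, PLAUR, PLAT and TFPI2 and lowered SERPINE2 and SERPINB2, 6 of 9 where 11.2% of all tested genes were called (4.94% higher, 6.25% lower). POG lowered PLAU, PLAUR, PLAT, SERPINE2, F3 and TFPI2 and raised none, 6 of 9 where 14.6% were called (5.98% higher, 8.6% lower). DEG lowered PLAU, SERPINE2 and TFPI2, 3 of 9 where 9.64% were called (3.52% higher, 6.11% lower). The libraries did not overlap those of NC for 6 of the 9 genes with RES (40.9% of all tested genes), 6 with POG (44.1%) and 7 with DEG (51.8%). Of the calls over all genes, 44.1% were higher with RES, 41.0% with POG and 36.6% with DEG. With plain library totals in place of TMM those shares were 64.0%, 56.0% and 49.4%. The median log2 change of the 9 genes was 0.12 with RES, −0.11 with POG and −0.09 with DEG, against 0.00 over all tested genes in each case. These 4 comparisons share the same 2 NC libraries.

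Some of the smaller calls were lost when a single library was left out. Without NC replicate 1 the RES calls fell from 6 to 3, since PLAU (FDR = 0.0878), SERPINB2 (FDR = 0.098) and TFPI2 (FDR = 0.0787) were lost. Without NC replicate 2, or without any 1 of the POG libraries, the POG calls fell from 6 to 3 and the calls of PLAUR, PLAT and F3 were lost. The POG calls of PLAU, SERPINE2 and TFPI2 and the 3 DEG calls were kept under every alternative run.

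**Figure D2:**
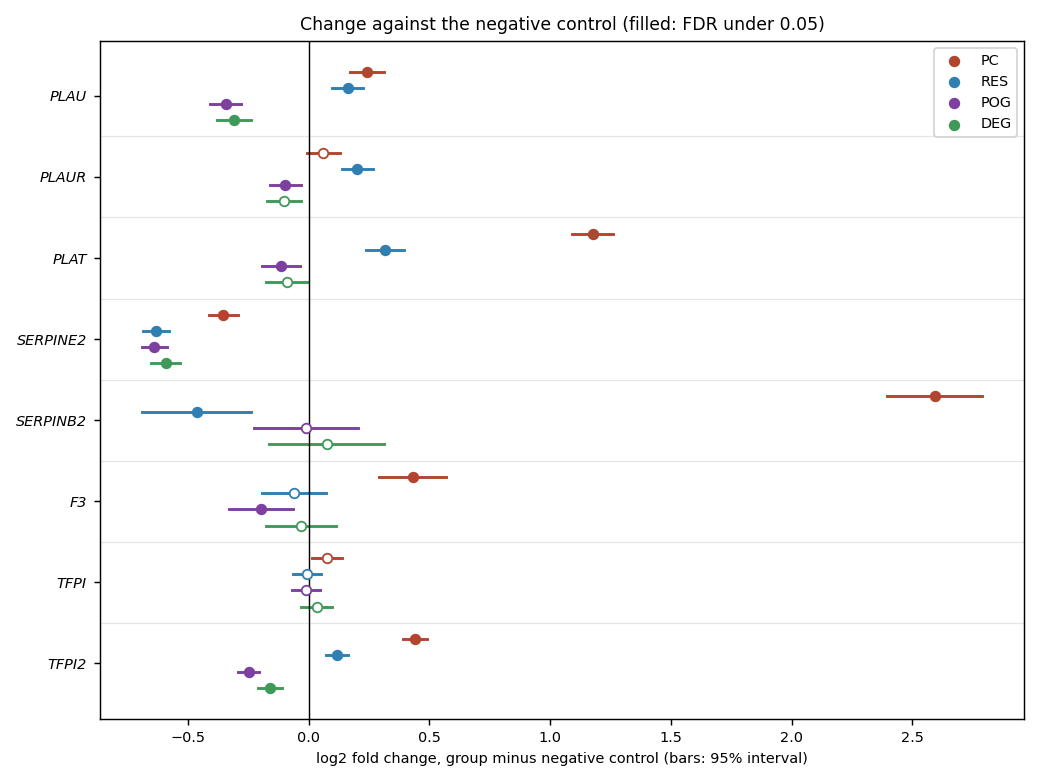
Log2 fold change of 8 of the genes in each group against NC on the horizontal axis, with 95% intervals as bars, and filled points where the FDR was under 0.05 (THBD, with few reads, is left out). SERPINE2 lies left of 0 in all 4 groups, PLAU and TFPI2 lie right of 0 with serum and RES and left of 0 with POG and DEG, and SERPINB2 reaches 2.59 with serum.

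The plasminogen activators come first. PLAU encodes urokinase and lies at chr10:73909177-73917496 on the plus strand (hg38). Its level was 285 and 278 CPM in PC, 232 and 245 in NC, 268, 263 and 269 in RES, 185, 187 and 192 in POG, and 189.6 and 195 in DEG. The groups did not overlap except POG with DEG. PLAU was 1.18-fold higher in PC than in NC (log2 0.24 ± 0.034 SE, FDR = 3.25e-09) and 11.9% higher with RES (log2 0.16 ± 0.031, FDR = 0.000162). It fell with POG (log2 −0.34 ± 0.031, FDR = 8.70e-20) and with DEG (log2 −0.31 ± 0.035, FDR = 5.18e-13). The exons of PLAU share 915 bases with C10orf55, a noncoding gene on the opposite strand, and the strand setting of the counting was not stated, so reads of the pair cannot be told apart there.

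PLAT encodes tissue-type plasminogen activator and lies at chr8:42174718-42207709 on the minus strand. Its level was 268 and 251 CPM in PC against 109 and 121 in NC, with 143, 142 and 144 in RES, 107, 105.5 and 106 in POG, and 108 in both DEG libraries. PC stood apart from all others, and RES stood above NC. The rise with serum was 2.26-fold (log2 1.18 ± 0.041, FDR = 6.93e-151) and that with RES 1.24-fold (log2 0.32 ± 0.039, FDR = 6.70e-12). Both NC libraries lay above the POG and DEG libraries, NC replicate 1 only narrowly. The change with POG was −0.11 ± 0.039 on the log2 scale, at the edge of the threshold (FDR = 0.0495), and was not called by the quasi-likelihood test (FDR = 0.0514) or without NC replicate 2 (FDR = 0.773). With DEG the value was −0.09 ± 0.043 (FDR = 0.245), called only without NC replicate 1 (FDR = 0.0498).

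PLAUR, the urokinase receptor, lies at chr19:43646095-43670547 on the minus strand. It was at 312 and 293 CPM in PC, 289 and 292 in NC, 344, 325 and 333 in RES, 274, 269 and 272 in POG, and 268 and 274 in DEG. RES gave the highest libraries, above those of PC. The RES value was 1.15-fold that of NC (log2 0.20 ± 0.031, FDR = 1.14e-06) and also exceeded PC, where the change from RES to PC was −0.14 ± 0.031 on the log2 scale (FDR = 0.000304). The serum change itself was 0.06 ± 0.034 (FDR = 0.206), and it was called only without PC replicate 2 (FDR = 0.00134). The 2 PC libraries differed more than those of NC, with an SD of 13.3 CPM against 1.73. With POG the change was −0.10 ± 0.031 (FDR = 0.0479), lost in every fit without an NC or POG library, and with DEG −0.10 ± 0.034 (FDR = 0.0902), which was called with dispersions from DEG and NC alone (FDR = 0.00203).

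Among the inhibitors, SERPINE2 was the member that fell most with every compound. It encodes protease nexin-1, which inhibits thrombin, urokinase and plasmin, and lies at chr2:223975045-224039318 on the minus strand. NC held 579 and 590 CPM, PC 462 and 453, RES 380.1, 376 and 375, POG 375, 376 and 375, and DEG 384 and 392. NC lay above every other library and PC between NC and the compounds. The level was 0.645 of NC with RES (log2 −0.63 ± 0.026, FDR = 7.16e-90), 0.643 with POG (log2 −0.64 ± 0.026, FDR = 1.29e-91) and 0.664 with DEG (log2 −0.59 ± 0.029, FDR = 3.95e-63). In PC it was 0.783 of NC (log2 −0.35 ± 0.029, FDR = 1.02e-23). PC exceeded each compound group by 0.24 to 0.29 on the log2 scale, and all 3 differences were called. All of these calls held under every alternative run.

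SERPINB2, also called plasminogen activator inhibitor 2, lies at chr18:63871692-63903888 on the plus strand. It was low in cells without serum, at 5.63 and 5.08 CPM in NC, 4.02, 3.60 and 4.04 in RES, 5.08, 4.97 and 5.87 in POG, and 5.45 and 5.83 in DEG. In PC it reached 32.2 and 32.3 CPM. The serum rise was 6.03-fold (log2 2.59 ± 0.096, FDR = 5.14e-159). All 3 RES libraries lay below all others, and the level with RES was 0.726 of NC (log2 −0.46 ± 0.111, FDR = 0.00116). POG and DEG overlapped NC, with changes of −0.01 ± 0.106 (FDR = 0.994) and 0.08 ± 0.117 (FDR = 0.823). Its exons share 547 bases with an unnamed gene model on the same strand (ENSG00000289724), which has no row in the count table.

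F3, which encodes tissue factor, lies at chr1:94529173-94541759 on the minus strand. PC held 26.8 and 29.6 CPM and NC 20.9 and 20.8, RES 18.9, 20.1 and 21.0, POG 17.8, 18.4 and 18.5, and DEG 20.3 and 20.6. PC lay above all others and POG below all others. Serum raised it 1.35-fold (log2 0.43 ± 0.068, FDR = 5.06e-09). The change with POG was −0.20 ± 0.065 (FDR = 0.0283), which DESeq2 did not call (FDR = 0.0548), and the fits without an NC or POG library did not call it either. With RES the change was −0.06 (95% interval −0.19 to 0.07, FDR = 0.662) and with DEG −0.03 (95% interval −0.18 to 0.11, FDR = 0.892).

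The inhibitors of the tissue factor pathway differed from each other. TFPI2, at chr7:93885396-93890753 on the minus strand, had 2965 and 2828 CPM in PC, 2130.1 and 2140.5 in NC, 2344, 2309 and 2299 in RES, 1802, 1789 and 1802 in POG, and 1911 in both DEG libraries. No groups overlapped, and the order of the means from PC through RES, NC and DEG to POG was the one PLAU and PLAT showed. The changes against NC were 0.44 ± 0.024 with serum (FDR = 2.50e-37), 0.12 ± 0.022 with RES (FDR = 0.0026), −0.25 ± 0.022 with POG (FDR = 5.03e-14) and −0.16 ± 0.024 with DEG (FDR = 8.50e-05). For TFPI2, neighbours in that order differed at an FDR under 0.05 except DEG and POG (FDR = 0.148). Its exons share 44 bases with GNGT1 on the opposite strand.

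TFPI, at chr2:187464230-187565760 on the minus strand, hardly moved. Its libraries ran from 263 to 283 CPM over all 5 groups. No change against NC was called. The largest was that with serum, 0.08 on the log2 scale (95% interval 0.01 to 0.14, FDR = 0.0615), which the quasi-likelihood test called (FDR = 0.0427) and so did DESeq2 (FDR = 0.0241). The 95% intervals of the 3 compound changes lay between −0.07 and 0.10. PC exceeded RES by 0.08 (FDR = 0.0192) and POG by 0.09 (FDR = 0.0133), and neither call held with plain library totals. Its exons share 118 bases with CALCRL-AS1, an antisense gene with no row in the table.

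THBD was close to the detection limit. PC held 48 and 28 reads, NC 0 and 2, RES 7, 2 and 2, POG 1, 12 and 0, and DEG 0 and 3. The gene, a single exon at chr20:23045633-23049672 on the minus strand, thus had reads in both PC libraries at 0.971 and 0.664 CPM and at most 0.272 CPM elsewhere. Per read summed over the group, PC was 32.6 times NC (exact 95% counting interval 8.71 to 274), 10.1 times RES (5.34 to 21.1) and 8.66 times POG (4.77 to 17.0). These intervals cover counting error only. The PC to NC difference was called (FDR = 1.72e-07). THBD passed the filter on low counts only through its PC libraries, and a gene kept in this way can hardly be called lower in PC. Its calls against PC are therefore not independent support for a rise. None of the 3 compounds differed from NC by the test, and a change was not detectable at this depth: the ratio of RES to NC was 3.22, with an interval of 0.704 to 29.9. Of the 13 POG reads, 12 came from 1 library.

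**Figure D3:**
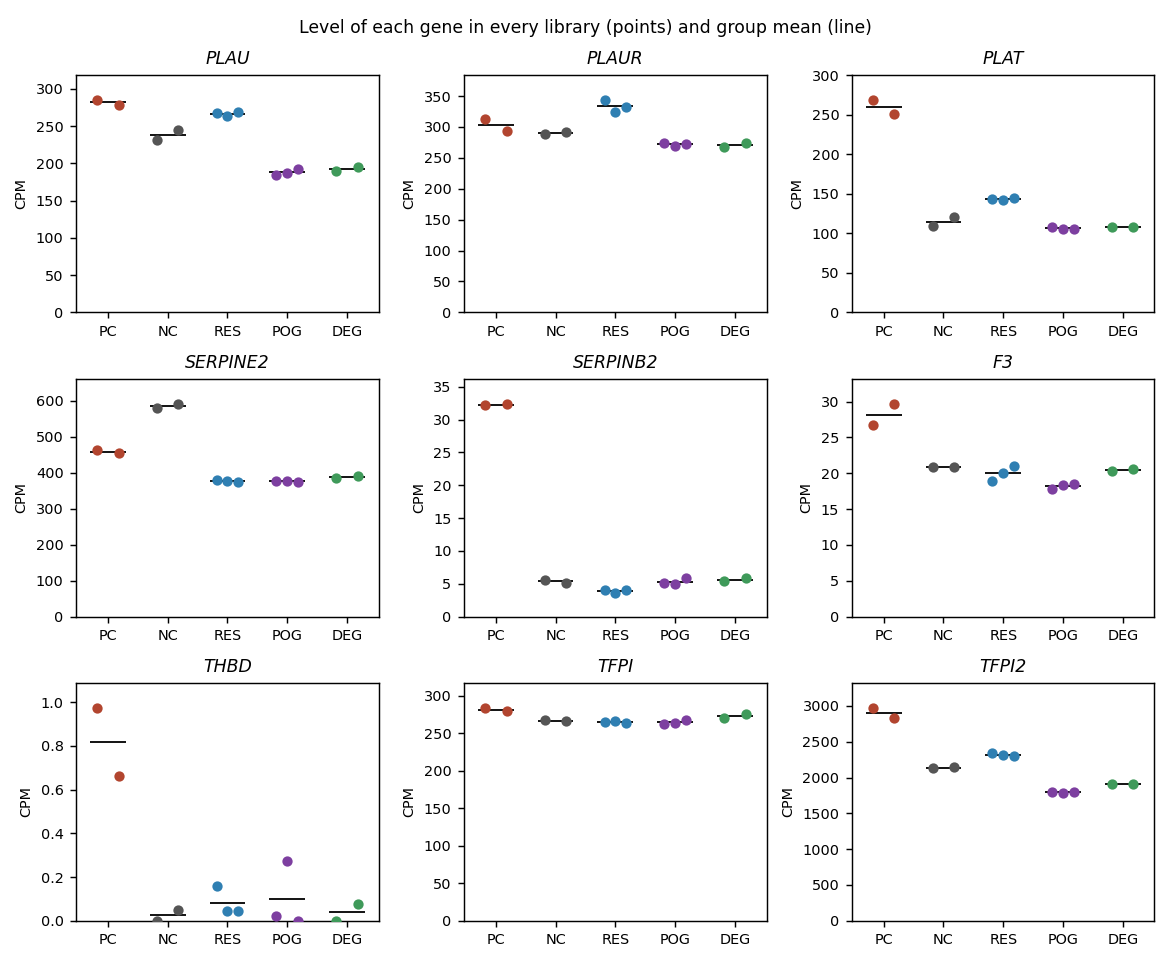
Level in CPM of each gene in every library (points, 1 panel per gene, axes from 0) by group, with the group mean as a line. PC (positive control) stands apart for PLAT, SERPINB2, F3, THBD and TFPI2, NC (negative control) stands above all others for SERPINE2, and TFPI stays between 263 and 283 CPM throughout.

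Set directly against each other at the same mass dose, RES differed from both POG and DEG, while no member was called between POG and DEG. RES was higher than POG for PLAU, PLAT, PLAUR and TFPI2 and lower for SERPINB2, 5 of 9 genes where 27.9% of all tested genes were called (13.7% higher in POG, 14.1% lower). The same 5 genes differed, in the same directions, between RES and DEG, where 21.2% were called (10.4% higher in DEG, 10.9% lower). The libraries did not overlap for 6 of the 9 genes between POG and RES (42.1% of all tested genes) and for 7 between DEG and RES (48.4%). These comparisons share the RES libraries. From RES to POG the log2 changes were −0.50 ± 0.028 for PLAU (FDR = 1.31e-54), −0.43 ± 0.034 for PLAT (FDR = 6.28e-29), −0.30 ± 0.028 for PLAUR (FDR = 4.74e-19), −0.37 ± 0.020 for TFPI2 (FDR = 3.00e-38) and 0.45 ± 0.097 for SERPINB2 (FDR = 6.23e-05). From RES to DEG they were −0.47 ± 0.032 for PLAU, −0.41 ± 0.039 for PLAT, −0.30 ± 0.031 for PLAUR, −0.28 ± 0.022 for TFPI2 and 0.54 ± 0.110 for SERPINB2, with FDR values from 7.20e-37 to 3.26e-05. The endothelial marker sum was also higher in RES than in POG or DEG, and its part in these differences was not tested. All 10 of these calls were kept under every alternative run.

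The fall of SERPINE2 was not called different between compounds. Its difference from RES to POG was −0.01 (95% interval −0.05 to 0.04) and from RES to DEG 0.04 (95% interval −0.01 to 0.10). Between POG and DEG none of the 9 genes was called by edgeR's exact test, where 1.07% of all tested genes were (0.573% higher in DEG, 0.497% lower). The libraries of POG and DEG did not overlap for 5 of the 9 genes, as for 31.9% of all tested genes. At an unadjusted p under 0.05 there were 2 of the 9 (TFPI2 and F3), and the quasi-likelihood test called none. F3 was 0.16 higher in DEG (95% interval 0.03 to 0.30, FDR = 0.272). TFPI2 was 0.09 higher in DEG (95% interval 0.04 to 0.13, FDR = 0.148) and was called by DESeq2 (FDR = 0.0285). For PLAU, PLAT and PLAUR the 95% intervals lay between −0.07 and 0.10.

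**Figure D4:**
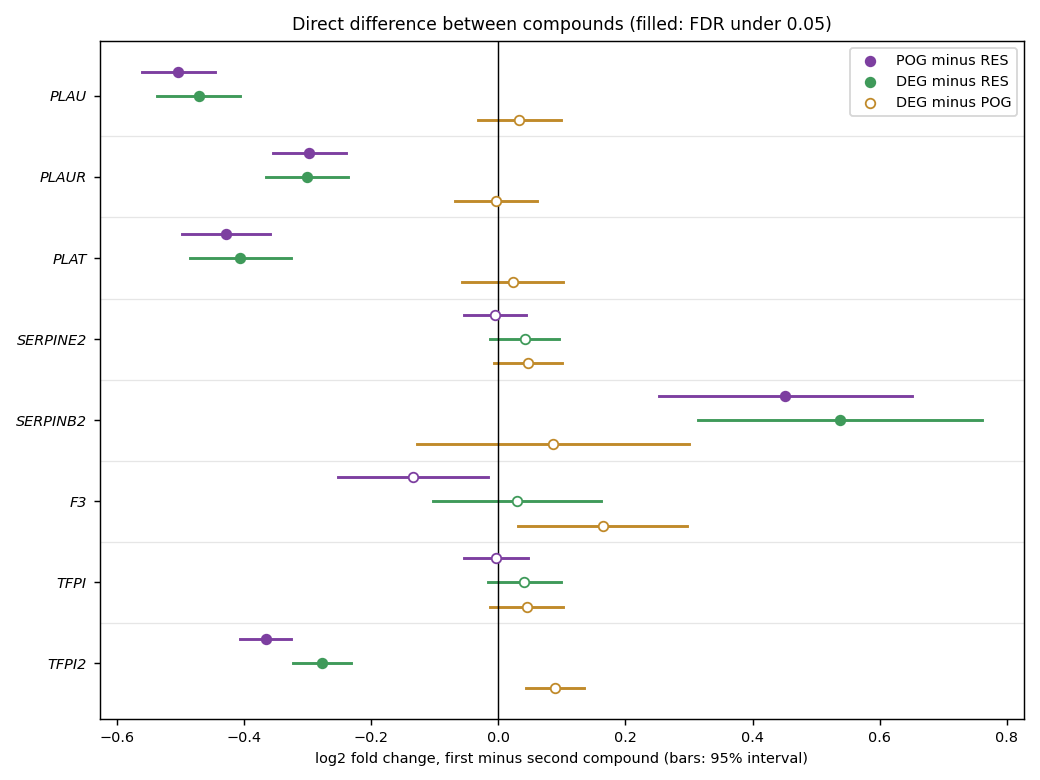
Log2 difference between compounds on the horizontal axis for 8 of the genes, with 95% intervals as bars and filled points at an FDR under 0.05. The POG minus RES and DEG minus RES points run from −0.50 for PLAU up to 0.54 for SERPINB2. They lie near each other for most genes, but on opposite sides of 0 for F3 (−0.13 and 0.03). None of the DEG minus POG points is filled, and the largest is 0.16 for F3.

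PC was set against each compound to complete the order of the 5 groups. It differed from RES in all 9 genes where 45.7% of all tested genes were called (23.2% higher, 22.5% lower), from POG in all 9 where 47.9% were called (24.1% higher, 23.8% lower) and from DEG in 8, all but TFPI, where 43.5% were called (22.3% higher, 21.1% lower). The libraries did not overlap for any member in these comparisons, as for 59%, 60.8% and 66.5% of all tested genes. THBD is in these counts, but it passed the filter on low counts only through PC and is not independent support for a difference. Of the calls over all genes, 50.8% were higher in PC than in RES, 50.4% than in POG and 51.4% than in DEG, and with plain library totals these shares were 34.8%, 36.7% and 37.7%. PLAT, SERPINB2, F3 and TFPI2 stayed below PC with each compound. PLAU came nearest with RES, which lay 0.08 below PC (95% interval 0.02 to 0.14, FDR = 0.0487), a difference that was not called with plain library totals (FDR = 0.864).

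The rest of the pathway was described with 63 further genes listed by role, of which 39 passed the filter and 24 did not. The 9 with 0 reads in all libraries included PLG, the plasminogen gene itself, and the clotting factor genes F9, F11 and FGA. Against NC, 25 of the 39 were called with serum (15 higher, 10 lower), 13 with RES (4 higher, 9 lower), 12 with POG (1 higher, 11 lower) and 7 with DEG (1 higher, 6 lower). The 15 include SERPIND1, which passed the filter only through PC. Over all tested genes the shares called were 42.4% in PC, 11.2% under RES, 14.6% under POG and 9.64% under DEG, and the counts of each list that follows are to be read against them. The median log2 change of the 39 was 0.08 in PC, −0.01 in RES, −0.09 in POG and −0.08 in DEG, against −0.01 in PC and 0.00 in each compound group over all tested genes.

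Of the 6 inhibitors of plasminogen activators and plasmin that passed the filter, 2 were called with serum, both higher, and 1 with POG, lower. With RES the inhibitor called was SERPING1, the C1 inhibitor, at 21.9 CPM in NC and 29.8 in RES (FDR = 2.52e-11). With DEG no inhibitor was called by either edgeR test, and 1 (SERPING1) had an unadjusted p under 0.05. Between POG and DEG, 1 of the 39 genes was called.

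In the list of plasminogen receptors and clearance receptors, 11 of 12 genes were called with serum, 6 higher and 5 lower (42.4% of all tested genes were called). VLDLR, a receptor that takes up complexes of activators and serpins, rose from 6.37 to 10.8 CPM (FDR = 3.29e-12), and SORL1, a related sorting receptor, fell from 9.46 to 3.87 CPM (FDR = 6.72e-21). SORL1 was also lower with DEG, at 6.32 CPM (FDR = 0.000173). With POG 5 of the 12 fell and none rose, among them ITGB3, an integrin subunit that binds vitronectin (10.6 CPM in NC, 8.72 in POG, FDR = 0.0148). With RES 1 rose and 3 fell, and with DEG 3 fell.

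Of the contact and coagulation factors, 5 of 19 passed the filter. VWF, the carrier of factor VIII and an endothelial marker, was at 2.53 CPM in NC, 0.299 in PC (log2 −3.04 ± 0.292, FDR = 1.81e-25) and 4.88 in RES (log2 0.94 ± 0.173, FDR = 2.90e-06). F12 rose with serum from 2.85 to 4.27 CPM (FDR = 0.0019), and HGFAC, a serine protease related to factor XII, rose with RES from 0.704 to 1.56 CPM (FDR = 0.0038). None of these 5 was called by edgeR's exact or quasi-likelihood test with POG or DEG against NC, and 1 (F12, with POG) had an unadjusted p under 0.05. From RES to POG, 4 of the 5 were lower, as were 14.1% of all tested genes.

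All 3 protease-activated receptor genes that passed the filter fell with POG, 2 of them with serum and with RES, and 1 with DEG. F2R, the main thrombin receptor, went from 134.5 CPM in NC to 105.9 in POG (log2 −0.35 ± 0.035, FDR = 5.10e-18) and 113 in DEG (FDR = 6.32e-08). F2RL1, protease-activated receptor 2, went from 27.6 to 21.3 CPM in POG (FDR = 4.10e-07) and 24.0 in RES (FDR = 0.0223). Among the 6 genes that passed from the list of anticoagulant and related genes, 3 were called with serum (2 higher, 1 lower). With POG 1 of the 6 fell, and with DEG 1 fell. The list includes GAS6, which is not itself an anticoagulant. GAS6 was at 660 CPM in NC, 506 in PC, 637 in RES, 575 in POG and 604 in DEG. SERPIND1, 1 of the 2 higher, passed the filter only through PC (0.417 CPM, against 0.102 in NC) and is not independent support for a rise. With RES none was called by either edgeR test, and 1 (ANXA5) had an unadjusted p under 0.05.

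In the list for the vitamin K cycle and factor secretion, NQO1, a quinone reductase, was at 96.3 CPM in NC and 49.9 in RES (log2 −0.95 ± 0.039, FDR = 6.95e-113), 63.7 in PC, 86.6 in POG (FDR = 0.00187) and 85.1 in DEG. LMAN1, a cargo receptor for factors V and VIII, rose from 438 CPM to 490.3 with POG (FDR = 4.26e-05) and 501 with DEG (FDR = 9.24e-06). The list gave 5 calls of 7 with serum (4 higher, 1 lower), 4 with RES, all lower, and 2 each with POG and DEG (1 higher, 1 lower in each). From RES to POG all 7 were called, 6 of them higher in POG, where 27.9% of all tested genes were called and 13.7% were higher.

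Genes whose 5 group means of log2 CPM lay closest to those of a member, each gene centred on its own mean, were named for the members that spanned at least 0.5. For TFPI2 these were LINC01116 (root mean square difference 0.0246 over the 5 means) and CCDC9B (0.0343). For PLAT they were G0S2 (0.0464) and GPRC5A (0.0584), and for SERPINE2 HTR7 (0.0636) and TEX22 (0.0719). For PLAU they were ENSG00000274642 (0.0359) and SLC22A4 (0.0373), and for F3 LDHAP4 (0.0309), a pseudogene whose reads may be shared with its parent gene, and ZNF469 (0.0325). SERPINB2 was nearest to IL1A (0.247), and THBD to OPCML (0.345) and TMEM156 (0.416). PLAUR and TFPI spanned less than 0.5. The means of a gene pair come from the same 12 libraries.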

How the data were processed

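The deposited data were a single gene by library table of unnormalized read counts. Per their methods, reads were aligned to hg38 with STAR and counted on Ensembl genes with featureCounts. Versions, strand setting and the treatment of multi-mapped reads were not given in the sources used here, so overlapping genes carry uncertain counts. The deposited counts were tested with edgeR 4.0.16 in R 4.3.3: TMM scaling, filterByExpr by group, dispersions from all 12 libraries, the exact test the authors named, and Benjamini-Hochberg adjustment over 17092 genes for each of 10 pairwise comparisons. Standard errors and 95% intervals came from edgeR's quasi-likelihood fit. The test was checked on simulated data. The members, gene lists and the rule for other named genes (at most the 3 largest called rises and falls per comparison with a mean of at least 1 CPM and no overlap between groups) were chosen with earlier results of these data known. Coordinates and lengths came from GENCODE v44 and promoters from RefSeq. Alternatives were the quasi-likelihood test, DESeq2 1.42.0, its size factors or plain totals in the exact test, no filter, a floor of 1 CPM on the mean, dispersions re-estimated from each pair of groups and leaving out each library. Replicate numbers followed accession order. A gene that the rules chose is not reported here by name and stays in the counts.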

Additional observations from a re-analysis of the deposited data

How the results depend on the processing

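Of the 90 member values (9 genes in 10 comparisons) 58 were called, and 48 of these were called under every alternative that gave a value. The 10 others were the RES changes of PLAU, SERPINB2 and TFPI2, the POG changes of PLAUR, PLAT and F3, and differences of PLAU, TFPI or THBD between PC and a compound. The THBD difference between PC and POG was not called by DESeq2 (FDR = 0.112), which gave no adjusted p for 9 member values. Against NC, POG calls among the members numbered 3 with plain library totals and 3 with no filter, not 6. Between DEG and POG the count went from 0 to 1 with DESeq2 and with dispersions of the groups compared, in both cases TFPI2. Among the other pathway genes the calls between DEG and POG went from 1 to 0 with no filter and to 5 with dispersions of the groups compared, and those of DEG against NC from 7 to 14 with those dispersions. The causes were not tested.

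Leaving out 1 library gave 3 to 6 member calls for RES and 3 to 4 for POG against NC. Among other pathway genes it gave 7 to 12 for RES, 6 to 11 for POG and 3 to 7 for DEG against NC, 9 to 12 for DEG against RES and 0 to 1 for DEG against POG. No called value changed direction. Uncalled log2 values near 0 did. With plain totals TFPI became 0.0204 with RES, 0.0131 with POG and −0.0176 from DEG to PC, and SERPINB2 0.0136 with POG. Over left-out libraries F3 from RES to DEG ran from −0.0097 to 0.0671, PLAUR from POG to DEG from −0.021 to 0.0131, SERPINB2 with POG from −0.0907 to 0.0652, SERPINE2 from RES to POG from −0.0092 to 0.00077 and TFPI from RES to POG from −0.0104 to 0.0013. THBD ran from −5.12 to 1.58 from POG to DEG, −3.16 to 3.70 with DEG, −2.63 to 1.06 from RES to POG and −1.03 to 5.12 with POG. No paired analysis was possible because the replicate numbers only name libraries. Fits without 1 library of a pair assume that the lone library varies like the other groups. Low counts limit THBD most, and SERPINB2, with 161 to 273 reads per library without serum, had standard errors of 0.0971 to 0.117 on the log2 scale among those groups. Plain totals moved the median of all genes by at most 0.07 on the log2 scale.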

Other observations

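Ratios of 2 genes' reads within a library do not depend on how libraries are scaled. The pairs were chosen after the values were seen and carry no test. Urokinase reads per read of its inhibitor SERPINE2 were 0.408 in NC (0.400 and 0.415 in the 2 libraries), 0.615 in PC, 0.707 in RES, 0.5005 in POG and 0.496 in DEG, so that every group lay above NC, including the groups in which PLAU itself fell. PLAT reads per SERPINE2 read were 0.196 in NC, 0.567 in PC, 0.379 in RES, 0.283 in POG and 0.278 in DEG. SERPINE2, the divisor of both ratios, was itself lower than NC in every group. SERPINB2, another inhibitor of both activators, went the other way with serum, from 5.35 CPM in NC to 32.3 in PC. The reads of PLAU per read of its receptor PLAUR were 0.821 in NC, 0.930 in PC, 0.799 in RES, 0.692 in POG and 0.710 in DEG. SERPINB2 reads per SERPINE2 read were 0.00917 in NC, 0.0705 in PC, 0.0103 in RES, 0.0141 in POG and 0.0145 in DEG. These are ratios of mRNA reads, not of proteins or of protease activity.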
